A study of Homo sapiens with 2 samples.

Results

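The 10 genes described here are ERP29, GRHPR, H2AZ1, RIDA, PCYOX1, GSKIP, ECHS1, ZC3HAV1L, NDUFAB1 and B3GALNT1. They were chosen from the measured values of these arrays, as genes under 30 kb with a signal about 4-fold or more lower after inhibition of miR-361-3p, and they are 10 of 11272 genes with a value. Their differences are therefore a description, and no test was made on them. The cells were GFP-SAS, an established human tongue squamous cell carcinoma line that carries green fluorescent protein. Cells of the anti-miR group were exposed for 24 h to 25 nM of an antisense oligonucleotide of the LNA/DNA type directed at miR-361-3p, and control cells to a non-target one. Each group is 1 sample of this 1 line on 1 Affymetrix 3' expression array, made from 10 ng of total RNA. No value below can be set against the spread between cultures. Both arrays were made from the same amount of RNA, so fewer cells or less RNA per cell would not be seen in these values. The part of a labelling difference was not tested.

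MicroRNAs guide Argonaute proteins to partly complementary messenger RNAs and lower their stability and translation. The seed, bases 2 to 8 from the 5' end, contributes most to target choice. Blocking a microRNA is known to raise its direct targets, whereas the 10 genes described here had lower signals. The sequence blocked by the oligonucleotide is shown first, with its seed in capitals. It is taken from RefSeq on build GRCh38.p14 (chrX:85903641-85903663, minus strand).
hsa-miR-361-3p: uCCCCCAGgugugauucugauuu

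The 10 genes encode proteins of unrelated function. ERP29, B3GALNT1 and PCYOX1 act along the secretory pathway and in lysosomes. GRHPR, ECHS1, NDUFAB1 and RIDA are enzymes or carriers of intermediary metabolism. H2AZ1 is a histone variant, GSKIP a kinase-binding protein and ZC3HAV1L a relative of an antiviral RNA-binding protein. As background, a messenger RNA level reflects both its synthesis and its decay.

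Expression is given on the log2 scale for each probe set, a group of short probes that reads 1 or several transcripts. Only probe sets at or above the median of at least 1 array (4.64 for the anti-miR array, 4.63 for the control array) were retained, and a gene's value is the mean over its retained probe sets. The 10 genes had 24 probe sets, of which 21 were retained. Since a probe set could be retained through the control array alone, retention is not independent of a loss. This was so for 3 of the 21. On the anti-miR array PCYOX1 had such probe sets at 4.51 and 3.99, and B3GALNT1 had one at 4.50. The filter left out 2 of the 3 probe sets of ZC3HAV1L and 1 of the 3 of B3GALNT1. All 24 probe sets were lower on the anti-miR array, 19 of them at least 4-fold, against 0.749% of all probe sets with 1 gene. The rule used this contrast, so nothing is read from that share.

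Gene values on the anti-miR array ranged from 4.79 to 9.37 with a median of 6.32, against 6.92 to 12.0 with a median of 9.03 on the control array. The differences ranged from -3.06 to -2.13 with a median of -2.35, so the signal on the anti-miR array was 12.0% to 22.9% of that on the control array. Over all 11272 genes, 0.896% were at least 4-fold lower, and the median difference was 0.13. On the control array these genes were bright, with a median level at the 91.7th percentile of all genes. The control value is part of the contrast that chose them, so a high level there is favoured by the rule. H2AZ1 stood at the 99.5th percentile there and B3GALNT1, the dimmest, at the 64.5th.

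The 23 nonspecific control probe sets give a rough upper limit for background. They reached 7.16 on the anti-miR array, against 6.87 on the control array. On the control array 20 of the 24 probe sets lay above that limit. On the anti-miR array 7 did, namely all 4 of H2AZ1 and 1 each of ERP29, ECHS1 and NDUFAB1. The others are not shown to be above background on the anti-miR array, so their folds are not exact sizes.

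**Figure D1:**
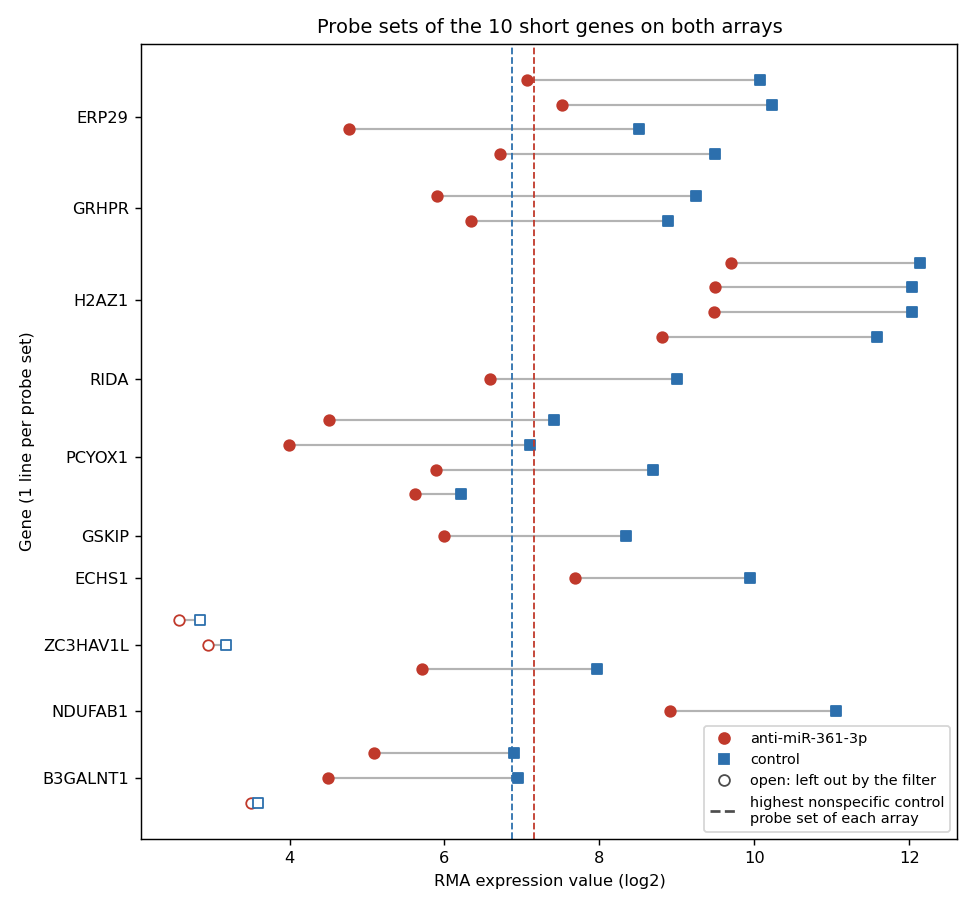
Expression value (log2, horizontal axis) of each probe set of the 10 genes on the anti-miR array (circles) and the control array (squares), with 1 array per group and no error bars. Open symbols mark the 3 probe sets left out by the filter, and dashed lines the highest nonspecific control probe set of each array (7.16 and 6.87). The wide gap repeats in most probe sets, and the 4 probe sets of H2AZ1 are nearly parallel.

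The promoter windows were compared as a feature the choice of genes did not use, but without matching for level on the control array. RefSeq windows of 300 bases, 250 before and 50 after the transcript start on build GRCh38.p14, gave 12 windows for 9 of the genes, and RIDA was not used here. These windows had a median of 31 CpG pairs and 69.7% G and C, against 25 and 64.7% in 13493 windows of measured genes. Not all were above those medians. The second start of GSKIP had 3 CpG pairs, and H2AZ1 had 25 and 63.0% G and C. NDUFAB1 (62.7%) and the first start of B3GALNT1 (63.7%) also had less G and C. Searched on both strands were the letters GGGCGG (the GC box read by SP factors), CCAAT (read by NF-Y), TATAAA (the TATA box) and, added after these sequences were seen, CACGTG (the E-box read by MYC and USF factors). GGGCGG was found in 8 of the 12 windows, against 65.6% of windows of measured genes, and CCAAT in 3, against 34.6%.

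The windows below show ERP29, whose mean difference was the lowest, H2AZ1 and its close relative H2AZ2, which is not one of the 10, and the mitochondrial genes ECHS1 and NDUFAB1. Matches are in capitals, and no 2 matches overlap. ERP29 (chr12:112013176-112013475, plus strand), H2AZ1 (chr4:99950226-99950525, minus strand), H2AZ2 (chr7:44848038-44848337, minus strand), ECHS1 (chr10:133373305-133373604, minus strand) and NDUFAB1 (chr16:23596267-23596566, minus strand) are each written 5' to 3' on the gene's strand.
ERP29: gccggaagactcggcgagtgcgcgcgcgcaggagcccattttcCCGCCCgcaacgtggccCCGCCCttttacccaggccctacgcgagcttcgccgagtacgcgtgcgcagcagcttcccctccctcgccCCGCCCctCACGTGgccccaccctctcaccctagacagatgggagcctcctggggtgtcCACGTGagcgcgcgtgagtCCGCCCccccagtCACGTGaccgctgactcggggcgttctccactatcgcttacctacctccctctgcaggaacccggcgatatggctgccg
H2AZ1: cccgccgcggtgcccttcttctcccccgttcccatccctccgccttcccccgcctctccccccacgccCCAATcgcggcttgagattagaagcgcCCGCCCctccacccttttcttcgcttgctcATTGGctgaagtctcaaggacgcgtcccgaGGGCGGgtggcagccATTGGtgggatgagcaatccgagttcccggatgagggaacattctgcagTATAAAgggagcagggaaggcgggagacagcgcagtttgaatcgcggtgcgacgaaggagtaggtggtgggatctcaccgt
H2AZ2: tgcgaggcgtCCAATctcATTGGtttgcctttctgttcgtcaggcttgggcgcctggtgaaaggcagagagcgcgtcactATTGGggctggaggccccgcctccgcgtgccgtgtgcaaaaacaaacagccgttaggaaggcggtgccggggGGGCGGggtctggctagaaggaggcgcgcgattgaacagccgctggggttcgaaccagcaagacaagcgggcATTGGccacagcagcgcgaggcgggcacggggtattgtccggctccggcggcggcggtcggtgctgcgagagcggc
ECHS1: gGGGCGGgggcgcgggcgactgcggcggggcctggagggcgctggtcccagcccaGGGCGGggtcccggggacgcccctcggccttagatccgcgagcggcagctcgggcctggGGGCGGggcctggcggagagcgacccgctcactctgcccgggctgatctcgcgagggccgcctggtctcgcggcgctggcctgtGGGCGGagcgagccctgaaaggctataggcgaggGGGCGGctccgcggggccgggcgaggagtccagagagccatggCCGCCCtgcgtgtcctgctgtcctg
NDUFAB1: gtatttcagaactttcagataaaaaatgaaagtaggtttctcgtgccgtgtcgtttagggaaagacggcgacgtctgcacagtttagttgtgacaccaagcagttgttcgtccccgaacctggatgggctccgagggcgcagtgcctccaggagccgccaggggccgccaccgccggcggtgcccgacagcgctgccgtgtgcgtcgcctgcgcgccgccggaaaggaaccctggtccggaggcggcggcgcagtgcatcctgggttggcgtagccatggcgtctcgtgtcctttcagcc

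The ERP29 window holds CACGTG 3 times, beginning 112, 61 and 29 bases before the start. CACGTG occurs at all in 9.62% of windows of measured genes and at least 3 times in 0.170%, and in no other window of the 9 genes. This motif was added after the sequences were seen, so nothing is read from its rarity. H2AZ1 holds TATAAA, 31 bases before the start, which 6.45% of windows of measured genes hold somewhere and none of the other 8 genes does. H2AZ1 and H2AZ2 both hold CCAAT, 3 and 4 times. The ECHS1 window holds GGGCGG 6 times and that of NDUFAB1 none of the 4 motifs. These matches are descriptions of the windows, and binding was not measured.

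ERP29, a chaperone of the endoplasmic reticulum related to the protein disulfide isomerases, had the lowest mean difference of the 10. By the median probe set GRHPR was lower (-2.94, against -2.89 for ERP29), and by the brightest probe set PCYOX1 (-2.81, against -2.71). Its 4 probe sets read 7.07, 7.52, 4.76 and 6.72 on the anti-miR array and, in the same order, 10.08, 10.23, 8.51 and 9.49 on the control array. Each probe set was lower on the anti-miR array. The mean difference was -3.06 ± 0.48 (SD over 4 probe sets), or 8.33-fold lower. All 4 probe sets are of the _s_at or _x_at classes, whose probes may also read other transcripts, and RefSeq lists 1 ERP29 pseudogene.

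B3GALNT1, the transferase that makes the glycolipid globoside, had 5.09 and 4.50 on the anti-miR array, against 6.89 and 6.95 on the control array, in its retained probe sets. It was 4.36-fold lower by their mean (-2.13 ± 0.45, SD over 2 probe sets), and the probe set left out, at 3.50 against 3.59, was dim on both arrays. With that probe set included the gene was 2.73-fold lower. The probe set at 4.50 was retained through the control array alone, and the other retained one differed by -1.81, short of 4-fold. RefSeq lists 48 transcripts for B3GALNT1, more than for any of the other 9 genes.

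PCYOX1, which oxidises the prenylcysteine released from degraded lipidated proteins in lysosomes, had discordant probe sets. Of its 4 probe sets, 3 read 4.51, 3.99 and 5.89 on the anti-miR array, against 7.42, 7.11 and 8.70 on the control array. The fourth read 5.61 against 6.22, a difference of -0.60, and lay below the nonspecific limit on both arrays. The other 3 differed by -2.91, -3.12 and -2.81, so the mean of -2.36 ± 1.18 (SD over 4 probe sets) describes neither kind well. Those at 4.51 and 3.99 were retained through the control array alone, so they are not independent support for the loss. Which transcripts each probe set reads was not tested.

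GRHPR, which reduces glyoxylate and hydroxypyruvate, was 7.68-fold lower. Its probe sets read 5.91 and 6.34 on the anti-miR array, against 9.25 and 8.88 on the control array. The differences of -3.34 and -2.54 are both past 4-fold.

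The mitochondrial genes of the set were among its brightest. ECHS1, the short-chain enoyl-CoA hydratase of beta-oxidation and valine breakdown, read 7.68 on the anti-miR array, against 9.94 on the control array (4.80-fold lower, 1 probe set). NDUFAB1, the mitochondrial acyl carrier protein and a subunit of respiratory complex I, read 8.91 on the anti-miR array, against 11.06 on the control array (4.45-fold lower, 1 probe set). Both remained above the nonspecific limit on the anti-miR array. RIDA, an imine deaminase known from bacteria to clear reactive products of pyridoxal phosphate enzymes, read 6.59 on the anti-miR array, against 9.0 on the control array (5.30-fold lower, 1 probe set). RefSeq lists 3 RIDA pseudogenes and 1 of NDUFAB1.

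H2AZ1, which encodes the replication-independent histone variant H2A.Z, gave the most even measurement. Its 4 probe sets read 9.70, 9.50, 9.49 and 8.80 on the anti-miR array and, in the same order, 12.14, 12.04, 12.04 and 11.58 on the control array. The differences lay between -2.78 and -2.45, with a mean of -2.58 ± 0.14 (SD over 4 probe sets), or 5.98-fold lower. With every value far above the nonspecific limit, its fold does not rest on a dim signal. H2AZ1 is the shortest of the 10 genes at 2.19 kb, and RefSeq lists 7 H2A.Z pseudogenes, whose transcripts some probes could also read.

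GSKIP, a small protein that binds GSK3 beta and anchors protein kinase A, read 6.0 on the anti-miR array, against 8.35 on the control array (5.09-fold lower, 1 probe set). ZC3HAV1L, a relative of the zinc finger antiviral protein, read 5.71 on the anti-miR array, against 7.97 on the control array in its retained probe set (4.79-fold lower). Its other probe sets, at 2.57 and 2.95 against 2.84 and 3.18, were near the floor of both arrays. Over all 3 probe sets ZC3HAV1L was 1.89-fold lower, short of the limit of the rule.

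Gene length is the property on which this set stands apart by construction. Genes under 30 kb numbered 5943, and 11 of them (0.185%) were at least 4-fold lower. Among the 5323 genes of 30 kb and over, 90 (1.69%) were. The share at least 4-fold lower was 0.0388% (1 gene) under 10 kb, 0.351% (7) from 10 to 20 kb and 0.219% (3) from 20 to 30 kb. It was 0.312% (7) from 30 to 60 kb, 1.28% (21) from 60 to 120 kb and 4.33% (62) at 120 kb and over. Below 60 kb these shares rest on few genes. Strongly reduced genes of 30 kb and over had a median length of 187 kb, whereas the 10 genes ranged from 2.19 kb to 23.8 kb. The median difference was 0.24 in genes under 30 kb and -0.12 in longer genes.

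The 11th short gene past 4-fold was AADAC, an arylacetamide deacetylase, at 3.70 on the anti-miR array, against 5.72 on the control array. Both values were within the nonspecific range, and its difference was -2.02. Just short of 4-fold were PIGX, which takes part in GPI anchor synthesis, at -1.98, and NOM1, a nucleolar protein, at -1.86. So was TSN, which encodes the nucleic acid-binding protein translin, at -1.93, with probe sets from -3.26 to -0.63. PIGX, TSN and NOM1 lay within the nonspecific range on the anti-miR array. The shortest genes past 4-fold above the 30 kb limit were ZDBF2 (39.8 kb, -2.56), MFN1, a mitochondrial fusion protein (47.2 kb, -2.14), and EIF4E, the cap-binding translation factor (49.9 kb, -2.16). ZDBF2 lay within the nonspecific range on both arrays, and MFN1 and EIF4E on the anti-miR array.

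**Figure D2:**
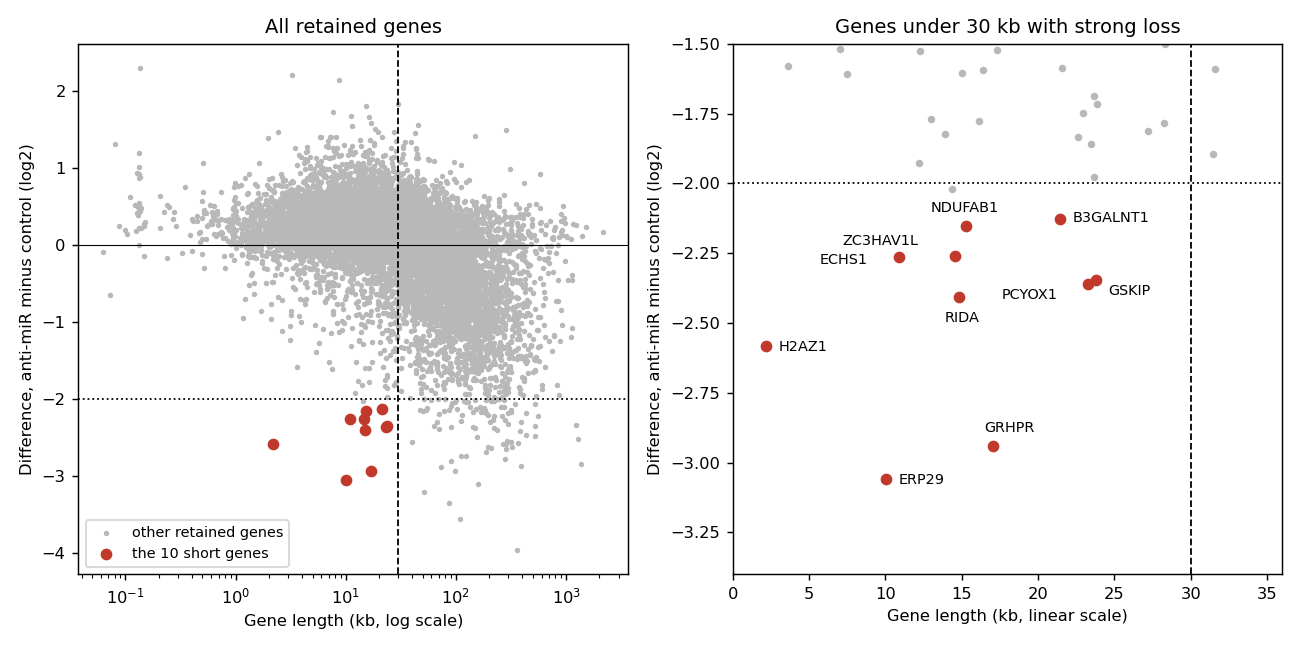
Difference between the arrays (anti-miR minus control, log2) against gene length (kb), for all retained genes on a log axis (left) and for short genes with low values on a linear axis (right). The dashed line marks 30 kb and the dotted line 4-fold lower. The 10 genes (red) lie apart from the bulk of short genes, whose median difference was 0.24, and the grey point just past the dotted line is AADAC.

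The likest pattern was sought by the distance between gene values over the 2 arrays, which is a weak measure with 2 points. It uses the values that chose the 10 genes, so the nearest genes had to be low as well, and only 10.9% of the 101 genes past 4-fold are under 30 kb. For 8 of the 10 genes the nearest gene was one of 30 kb and over. B3GALNT1 lay 0.018 from MFN1, and PCYOX1 0.021 from NT5DC1, a gene of 149 kb. H2AZ1 had no gene within 0.5, and the nearest, EEF1G, a translation elongation factor subunit, lay 0.92 away with a difference of -1.28. ERP29 too had no gene within 0.5, with EXT1 the nearest.

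Closely related genes gave other values than the short genes. H2AZ2 encodes an H2A.Z protein nearly identical to that of H2AZ1. Its 4 retained probe sets read 5.44, 9.86, 8.66 and 7.30 on the anti-miR array, against 6.16, 9.80, 8.70 and 7.43 on the control array, and it differed by -0.21 ± 0.35 (SD over 4 probe sets). The brightest H2AZ2 probe set differed by 0.05, while the least changed H2AZ1 probe set differed by -2.45. PCYOX1L, a relative of PCYOX1, read 7.87 on the anti-miR array, against 6.69 on the control array, 2.28-fold higher (1 probe set), the control value being within the nonspecific range. ZC3HAV1, the antiviral protein itself, was 1.56-fold lower (-0.64 ± 0.18, SD over 3 probe sets), its anti-miR value being within the nonspecific range. B3GALNT2, an enzyme of dystroglycan glycosylation, differed by 0.07 ± 0.02 (SD over 2 probe sets). Its mean levels lay within the nonspecific range on both arrays, though its brighter probe set, at 8.44 and 8.38, did not. None of these differences was tested against that of the related short gene.

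Partner genes of each short gene were taken from 10 lists of pathway or family members. Of 174 listed genes 147 had a value, with a median difference of 0.04. At least 2-fold lower were 6 of them (4.08%), against 6.98% of all genes, and at least 2-fold higher were 3, against 1.23%. At least 4-fold lower were 0 of the 147, against 0.896% of all genes. At least 1.5-fold lower were 19 of the 147 and higher 12, against 1602 and 928 of all 11272 genes. The endoplasmic reticulum folding list had 5 of 21 lower and 2 higher, and the GSKIP list 5 of 17 lower and 0 higher. Those 5 GSKIP partners were 51.8 kb to 273 kb long. The NDUFAB1 list had 1 of 20 lower and 4 higher. The list medians ranged from -0.24 to 0.26.

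In the endoplasmic reticulum folding list 1 of 21 measured genes was 2-fold lower, and the median was -0.05. That gene was KDELR1, a receptor that returns resident proteins to the endoplasmic reticulum (6.39 with the anti-miR, within the nonspecific range, and 7.46 in the control). HSP90B1, the brightest of the list, differed by -0.27 ± 0.07 (SD over 7 probe sets). In the list of globo glycolipid synthesis 0 of 10 genes passed 2-fold, and UGCG, which makes the glucosylceramide precursor, differed by -0.29. The prenylation list had a median of 0.21 over 11 genes, with PCYOX1L alone past 2-fold, and RABGGTB, a subunit of a Rab prenyltransferase, differed by 0.29 ± 0.04 (SD over 2 probe sets).

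Among 24 genes of mitochondrial beta-oxidation and branched-chain breakdown the median was 0.11. ACADSB, a short/branched-chain acyl-CoA dehydrogenase, was 3.06-fold lower at 3.54 on the anti-miR array, against 5.15 on the control array, both within the nonspecific range. ECI2, an enoyl-CoA isomerase and the brightest of the list, differed by 0.39. Of 20 genes for mitochondrial fatty acid synthesis, lipoate and iron-sulfur assembly, which meet at the acyl carrier protein NDUFAB1, the median was 0.22. SDHAF3, an assembly factor of succinate dehydrogenase, was 2.35-fold lower and LIPT1, a lipoyl transferase, 2.28-fold higher, but LIPT1 lay within the nonspecific range on both arrays and SDHAF3 on the anti-miR array. NDUFB9, another complex I subunit, differed by 0.24 ± 0.02 (SD over 3 probe sets).

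Glyoxylate genes other than GRHPR had a median of 0.26 over the 5 of 12 with a value, and LDHA, lactate dehydrogenase A, differed by -0.09 ± 0.04 (SD over 4 probe sets). The 9 measured pyridoxal phosphate enzymes listed with RIDA had a median of 0.12. BCAT1, a branched-chain aminotransferase, had a mean 3.10-fold lower and probe sets from -4.01 to -0.48, and its mean levels lay within the nonspecific range on both arrays. GOT2, the mitochondrial aspartate aminotransferase, differed by 0.01 ± 0.08 (SD over 5 probe sets).

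The 19 measured H2A variants and H2A.Z exchange factors had a median of 0.06. EP400, a remodeler that deposits H2A.Z, was 2.12-fold lower but within the nonspecific range on both arrays, and BRD8, a subunit of the same complex, was 2.54-fold higher, at 9.18 with the anti-miR and 7.83 in the control. H2AX, the variant phosphorylated at DNA breaks, differed by 0.26. Among 17 partners of GSKIP the median was -0.05. GSK3B (273 kb), the kinase that GSKIP binds, was 3.70-fold lower, at 6.15 with the anti-miR, within the nonspecific range, and 8.04 in the control. Of all genes of 120 kb and over, 30.4% were at least 2-fold lower. PRKACA, a catalytic subunit of protein kinase A, differed by 0.16. The 11 genes around the zinc finger antiviral protein had the lowest median, -0.24, with 0 past 2-fold, and DHX30, its helicase partner, differed by 0.01 ± 0.06 (SD over 2 probe sets).

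The partner genes were also divided by length. Of 77 partners of 30 kb and over 5 (6.49%) were 2-fold lower, against 13.3% of all genes of that length. Of 70 shorter partners 1 (1.43%) was, KDELR1 at 14.8 kb, against 1.31% of all genes under 30 kb. The median difference was -0.19 in the longer partners and 0.22 in the shorter ones.

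**Figure D3:**
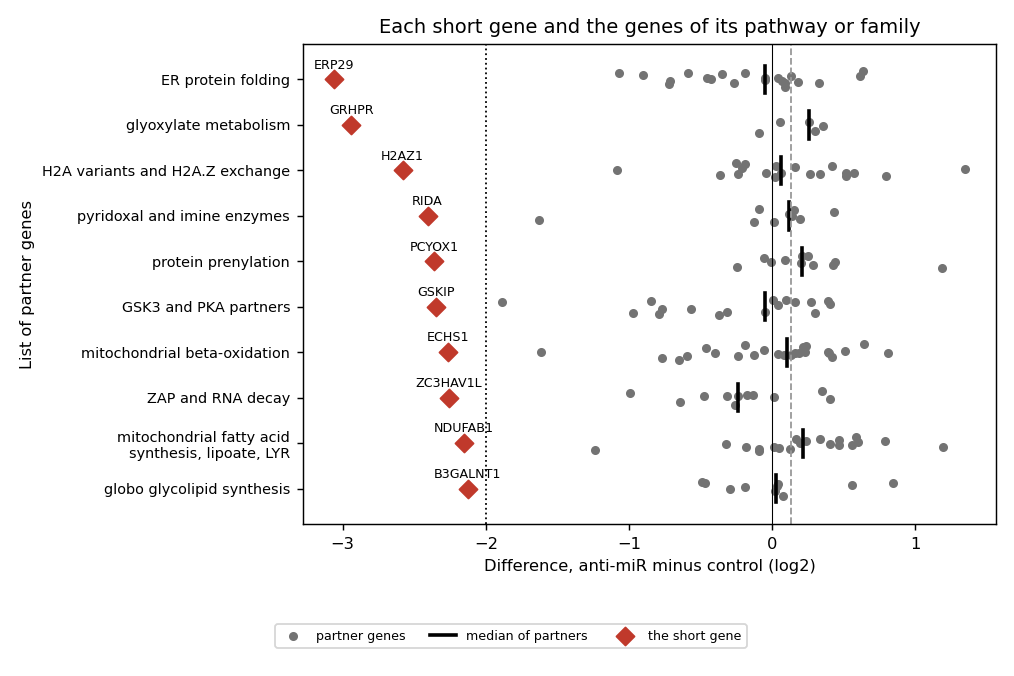
Difference between the arrays (anti-miR minus control, log2) of each short gene (red diamond) and of the measured genes of its list (grey points), with the list median as a black bar. The dotted line marks 4-fold lower, and the dashed line the median of all genes (0.13). The list medians lie between -0.24 and 0.26.

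The nearest retained gene on either side of each short gene gave 20 chromosomal neighbours, with a median difference of 0.18, against 0.13 for all genes. Genes left out by the filter can lie between a short gene and its neighbour, and no distance was computed. Of the 20 neighbours 17 lay within 2-fold, and both did for 7 of the 10 genes. Over all genes 6.98% were at least 2-fold lower and 1.23% at least 2-fold higher. At least 2-fold lower were 3 of the 20 neighbours, all of 30 kb and over, where 13.3% of all genes were. Only 6 of the 20 were under 30 kb. PPP3CA (324 kb), a catalytic subunit of calcineurin and the nearest retained gene after H2AZ1, had a mean 6.16-fold lower and probe sets from -3.75 to -1.27. ATG2B (84.1 kb), a lipid transfer protein of autophagy beside GSKIP, was 2.24-fold lower, and ZCCHC7 (238 kb), a nuclear RNA surveillance protein beside GRHPR, 2.21-fold. ATG2B and ZCCHC7 lay within the nonspecific range on both arrays and PPP3CA on the anti-miR array, so these folds are not exact sizes. MAPKAPK5, TIA1 and some other neighbours within 2-fold also lay within that range on both arrays. On the other side of H2AZ1, DNAJB14 differed by 0.23 ± 0.04 (SD over 2 probe sets). ERP29 lay between MAPKAPK5 at -0.42 and NAA25 at -0.22, and NDUFAB1 between UBFD1 at 0.08 and PALB2 at 0.65.

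**Figure D4:**
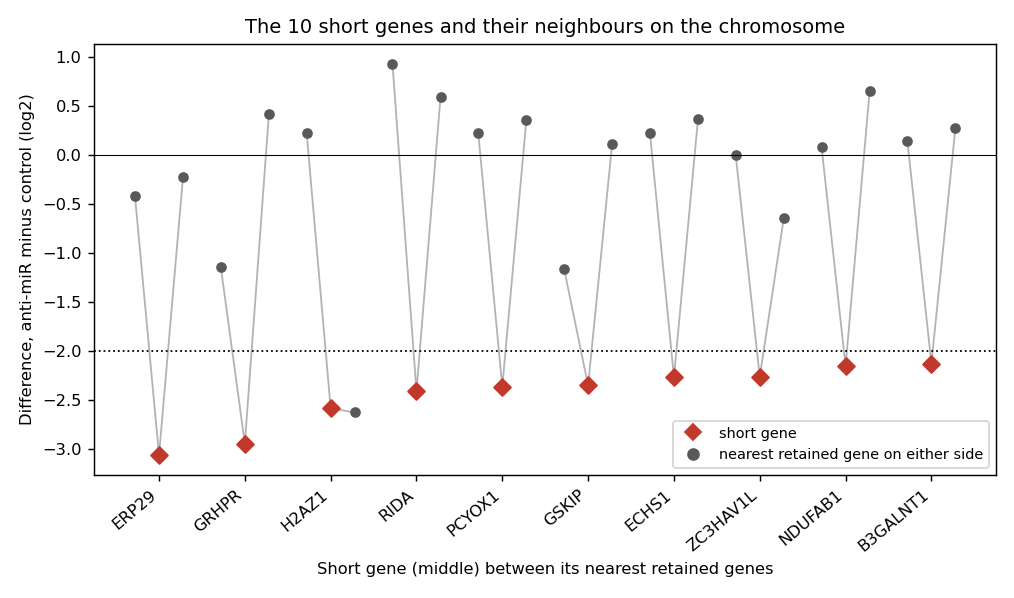
Difference between the arrays (anti-miR minus control, log2) of each short gene (red diamond) and of the nearest retained gene on either side of it (grey points), in the order of the RefSeq gene table. The dotted line marks 4-fold lower. Of 20 neighbours only PPP3CA, the nearest retained gene after H2AZ1, reaches it.

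As checks of the arrays, 6 of the 7 squamous and epithelial markers with a probe set of their own lay above the nonspecific range on both arrays, KRT5 at 9.62 on the anti-miR array, against 9.76 on the control array among them. KRT14, a basal keratin, did not, at 3.87 and 3.63. Of the fibroblast, leukocyte and endothelial markers 0 did, and of the muscle markers only TNNT1. GAPDH, a short bright gene, differed by -0.0047 (1 probe set) and ACTB, also short, by -0.13 ± 0.01 (SD over 3 probe sets). Spiked poly-A transcripts, a control of the labelling, differed in the other direction from the 10 genes, by 0.32 ± 0.19 (SD over 12 probe sets). The part of labelling in the differences was not tested.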

How the data were processed

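Per the submitters' processing notes, the deposited values are RMA values, and they are log2 expression per probe set. Neither the version of RMA nor which arrays it normalized jointly is stated in those notes. The 49386 probe sets include 93 array controls. Platform annotation gave 1 gene to 45253 probe sets, of which 45172 matched RefSeq (GRCh38.p14) by Entrez ID and took its symbols. The filter kept 24127 probe sets and 11272 genes, 11266 with a length. The files name no build. Lengths, gene order, promoter windows and the printed coordinates are those of RefSeq on GRCh38.p14. Each difference was computed as anti-miR minus control. With 1 array per group no test was possible, and precision is limited by this number of arrays. Errors are SDs over probe sets, which can share probes, and hold no variation between cultures. The members and lists were chosen with earlier results of these data known. The text names the 10 genes, their relatives, neighbours and nearest patterns, genes next to the limits, and of each list up to 4 genes past 2-fold and the brightest. GAPDH and ACTB are given besides. Gene values and counts were tested on simulated data. Alternatives tried were leaving the filter out, filtering at the 75th percentile, the brightest or median probe set, centring on the median or a lowess trend (fraction 0.3), plain _at probe sets alone, and other limits of length and fold. Python 3.11.15, numpy 2.4.6, pandas 2.3.3 and statsmodels 0.14.6 were used.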

Additional observations from a re-analysis of the deposited data

Results flagged for a closer look

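The poly-A spike control probe sets, which lie outside the gene comparison, differed between the arrays by a mean of 0.32 over 12 probe sets, higher with the anti-miR. Hybridization controls differed by 0.09, nonspecific controls by 0.13 and the median gene by 0.13. Differences of the 10 short genes ranged from -3.06 to -2.13. Whether the offset of the spike controls touched the values of these 10 genes was not tested.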

How the results depend on the processing

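Leaving out an array was impossible with 1 in each group, and no detection call was used, so signal over background limits the dim genes. No paired analysis was possible because neither group has more than 1 sample. The alternatives gave 198 values, of which 183 stayed within the pooled probe-set SD of 0.29 or within 1.5 times a count, 15 moved, and none of at least 1.5-fold changed sign. With plain _at probe sets, PCYOX1 alone of the 10 genes had a value, so 1 was at least 4-fold lower, the median was -2.95, and 7 genes under 30 kb passed. Against 11 short genes past 4-fold, 27 passed 3-fold and 6 passed 5-fold. Without the filter 8 of the 10 passed 4-fold, ZC3HAV1L differing by -0.92 and B3GALNT1 by -1.45, and with the brightest probe set 9 did, B3GALNT1 at -1.81. Without _x_at and _s_at probe sets, an alternative chosen after seeing the data, ERP29, GSKIP and ECHS1 had no value and the other 7 passed 4-fold. Among smaller values 15 changed sign: H2AZ2 to 0.05 with the brightest probe set, B3GALNT2 to -0.06 or -0.02 with centring, and the others medians of 6 partner lists, which lie near 0. The glyoxylate list had too few genes for a median at the 75th percentile or with plain _at probe sets.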
